A study of Mus musculus with 2 samples.

Results

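The cells described here are the fibroblasts of a pair of mouse pancreatic tumours profiled by single-cell RNA-Seq. A cell barcode was kept when it had at least 500 genes, 1000 to 60000 unique molecular identifiers (UMIs, one for each captured RNA molecule) and at most 15% mitochondrial UMIs. Fibroblasts were chosen by measured values: a kept barcode was taken as one when the 3 fibrillar collagen genes Col1a1, Col1a2 and Col3a1 together made up at least 1% of its UMIs, with at most 10 UMIs of Ptprc (the pan-leukocyte phosphatase CD45), less than 0.1% of UMIs from the endothelial genes Pecam1 and Cdh5, and at most 2 UMIs of the epithelial gene Epcam. The rule found 657 fibroblasts among 24160 kept barcodes, 312 of 11713 in KPC-shV and 345 of 12447 in KPC-shZEB1.

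Both tumours were orthotopic allografts, grown after KPC cells were injected into the pancreas of immunocompetent mice. The study lists C57BL/6J among the strains of its orthotopic models, bought at a few weeks of age, without assigning a strain to these animals. KPC cells are a mouse pancreatic cancer line. In KPC-shV they carried the control hairpin vector and in KPC-shZEB1 a hairpin against Zeb1, a transcription factor of epithelial-mesenchymal transition. The study's text gives gemcitabine as the treatment of both tumours, whereas the sample labels name only the injected cells. Each group is 1 tumour and 1 library, so animal, tumour, dissociation and hairpin cannot be told apart, and the intervals below (95%) cover counting error only. The hairpin was in the injected cancer cells, while the fibroblasts come from the host unless a cancer cell met the rule. In the fibroblasts Zeb1 was at 244 UMIs per 1000000 (CPM) in KPC-shV and 274 CPM in KPC-shZEB1. In the Epcam-positive barcodes, a class chosen by an epithelial gene, Zeb1 was at 97.2 and 139 CPM. The labelled knockdown was thus not seen as less Zeb1 transcript in that class of KPC-shZEB1. That class does not cover cancer cells with little Epcam, and counts of transcript ends need not show a hairpin's effect.

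Cancer-associated fibroblasts make and remodel the collagen-rich stroma that fills most of a pancreatic tumour. They are usually described in 3 states. Contractile cells, or myofibroblasts, carry smooth muscle actin and its partners and lie close to cancer cells. Inflammatory cells secrete cytokines, chemokines and acute-phase proteins, and antigen-presenting cells display MHC class II. TGF-beta is known to favour the contractile state and interleukin-1 acting through NF-kB the inflammatory one, and serum response factor drives contractile genes through a sequence called the CArG box.

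The fibroblasts were deep and similar in depth in the libraries, with a median of 28520 UMIs in KPC-shV and 28011 in KPC-shZEB1 (8973247 and 9642985 UMIs in all), against 3764 and 4381 over all kept barcodes. The median collagen share, which the rule used, was 2.83% and 2.96%, and the median mitochondrial share was 1.78% and 1.90%. Just inside the collagen limit, 17 and 20 fibroblasts lay at 1 to 1.2%, and just outside it 31 and 13 barcodes lay at 0.8 to 1%. The Epcam limit removed 11 and 19 collagen-rich barcodes, the Ptprc limit 5 and 6, and the endothelial limit 0 and 0. Of the barcodes above 60000 UMIs, 15 of 289 and 12 of 217 met the rest of the rule. A doublet score over 0.2 was found for 9 and 4 fibroblasts. The libraries share 46 barcode sequences, of which 2 are fibroblasts in KPC-shV and 0 in KPC-shZEB1.

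The fibroblast label held against markers that the rule did not use. Col5a2, a collagen V chain, was at 1469 and 1488 CPM in KPC-shV and KPC-shZEB1, which is 21.7 and 16.6 times the level in the next highest of 7 other cell classes. Slit3, a guidance ligand of stromal cells, was at 2853 and 2803 CPM, Sfrp1, a secreted Wnt antagonist, at 1836 and 1496 CPM, and Svep1, a large matrix adhesion protein, at 664 and 803 CPM, each at least 15.5 times the next class. The small proteoglycan genes Dcn (2922 and 2716 CPM) and Lum (897 and 767 CPM) were also high, and the growth factor receptor Pdgfra was 4.73 and 3.79 times the next class. Pdgfrb and Fap separated less, at 2.33 and 1.49 times for Pdgfrb and 1.51 and 1.85 times for Fap, and Thy1 was lower than in T cell barcodes (0.578 and 0.705 times). Markers of other stromal and tissue cells were low: the pericyte list summed to 140 and 156 CPM over 10 genes, the smooth muscle list to 116 and 112 CPM over 6 genes, and the Schwann cell list to 2.01 and 1.45 CPM over 5 genes, with 3 of the 5 at 0. The mesothelial list held 1 high gene, Wt1, at 440 and 310 CPM, while its surface markers Msln (4.01 and 4.67 CPM) and Upk3b (3.57 and 0.933 CPM) were near 0.

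RNA of other cells was present in these barcodes and differed between the libraries. The 9-gene macrophage list summed to 949 CPM in KPC-shV and 2429 CPM in KPC-shZEB1, and the 8-gene neutrophil list to 1483 and 713 CPM. The 8-gene acinar list, digestive enzymes of the normal pancreas, summed to 27.1 and 186 CPM. T cell and B cell lists stayed under 40 CPM in each library. Among kept barcodes, those that met the rule of the neutrophil class and of no other numbered 4031 and 1291, and those of the macrophage class alone 1519 and 3548, the same direction as the macrophage and neutrophil lists within the fibroblasts. The part of this RNA in the library differences is read below from the other classes and is otherwise not tested.

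Promoters of contractile and inflammatory genes are shown because the states they mark are set by different factors. The upstream 250 bases were searched on both strands for the CArG box and for the NF-kB motif, in RefSeq promoters of GRCm38.p6. The patterns were CCWWWWWWGG for the CArG box and GGGRNWYYCC for the NF-kB motif. Here W is A or T, R is A or G, Y is C or T and N is any base. Looser forms of either motif were not searched. For both motifs a list gene was counted when any of its promoter entries matched, while the share over all promoters is per entry. The counts are therefore not in like units. Of the contractile list, 11 of 12 genes were in the promoter table and 2 held a CArG box, Cnn2 and Myl9, against 1.47% of 32851 promoters. Of the inflammatory list, 13 of 18 genes were in the table and 5 held an NF-kB motif, Csf1, Cxcl1, Cxcl2, Il1r1 and Il6, against 3.9% of all promoters. The NF-kB motif was also found upstream of 2 contractile genes, Flna and Myl9, and no CArG box was found in the inflammatory promoters. Each stretch below is 100 bases on the plus strand, upstream of its gene's start site and outside the transcript, with the motif in capitals. Myl9 is shown for the CArG box of a contractile gene (chr2:156775223-156775322), and Cxcl1 (chr5:90891095-90891194), Cxcl2 (chr5:90903723-90903822) and Il6 (chr5:30012990-30013089) for the NF-kB motif.
Myl9: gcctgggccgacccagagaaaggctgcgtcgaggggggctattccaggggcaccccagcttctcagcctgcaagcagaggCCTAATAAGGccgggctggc
Cxcl1: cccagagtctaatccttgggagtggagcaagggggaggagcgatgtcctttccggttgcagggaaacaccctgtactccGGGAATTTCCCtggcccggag
Cxcl2: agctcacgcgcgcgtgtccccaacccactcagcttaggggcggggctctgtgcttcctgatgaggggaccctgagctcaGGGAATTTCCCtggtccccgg
Il6: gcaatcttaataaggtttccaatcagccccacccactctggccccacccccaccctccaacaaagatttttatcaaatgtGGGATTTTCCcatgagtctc
The neighbouring chemokine genes Cxcl1 and Cxcl2 carry the same run, which holds 2 overlapping matches. No match to these strict patterns lay in the upstream 250 bases for Acta2, Cnn1 or Tpm2 (CArG box) or for Saa3, C3, Ptgs2 or Lcn2 (NF-kB motif). These genes may hold looser forms, which were not searched. A match is a description of these letters and not a bound site.

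Fibroblasts made up 2.66% of kept barcodes in KPC-shV (2.38 to 2.97%, exact binomial interval) and 2.77% in KPC-shZEB1 (2.49 to 3.08%), a ratio of 1.04 (0.890 to 1.22). Because neutrophil barcodes were fewer in the library labelled KPC-shZEB1, the share was also taken over the 7512 and 10612 kept barcodes that did not meet the neutrophil rule, whether or not they met another. It was then 4.15% and 3.25%, a ratio of 0.783 (0.670 to 0.915). The direction of the share therefore depends on the denominator, and a dissociated suspension need not hold cells in the proportions of the tissue.

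For the comparison of libraries, UMIs were summed over the fibroblasts of each library and written as CPM, and a gene was called higher or lower when the ratio of KPC-shZEB1 to KPC-shV was past 1.5-fold in either direction. With 1 library per group there is no test and no p-value. Of 6401 genes with a mean of at least 20 CPM, 173 were higher (2.7%) and 121 were lower (1.89%) in the library labelled KPC-shZEB1, and the median log2 ratio over all of them was -0.02. A list is read against these shares.

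The contractile list was nearly level between the libraries. None of its 10 measured genes passed 1.5-fold, the median log2 ratio was -0.02, and the 12 genes together summed to 4159 CPM in KPC-shV and 3906 CPM in KPC-shZEB1. For Acta2, smooth muscle actin (chr19:34241090-34255590, minus strand), the fibroblasts of KPC-shV had 351 CPM and those of KPC-shZEB1 367 CPM, which gives a ratio of 1.05 (0.998 to 1.10). Tagln, the actin-binding protein transgelin (chr9:45929619-45936058), was at 712 and 708 CPM, a ratio of 0.995 (0.961 to 1.03). Myl9, the myosin light chain whose promoter is printed above, was at 45.0 and 47.6 CPM, and tropomyosin Tpm2 at 253 and 268 CPM. The lowest ratios among measured members were those of Mylk, myosin light chain kinase (130 and 105 CPM, ratio 0.809), and Actn1, an actin cross-linker (307 and 259 CPM, ratio 0.842). Cnn1 (10.5 and 10.1 CPM) and Lmod1 (2.01 and 1.14 CPM) were under the filter.

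Much of the Acta2 and Tagln RNA sat in few cells. The median fibroblast had 47.0 CPM of Acta2 in KPC-shV and 49.1 CPM in KPC-shZEB1, against an upper quartile of 226 and 215 CPM and highest cells of 5509 and 6909 CPM. The 10 highest cells held 44.0% and 39.2% of all Acta2 UMIs, and 32.2% and 32.9% of Tagln UMIs. Per cell, the contractile list had a median of 27.2 UMIs per 10000 in KPC-shV and 23.1 in KPC-shZEB1, and the cells from the 5th to the 95th percentile spanned 10.4 to 104 and 9.41 to 112. The distributions overlap over nearly their whole range.

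Matrix genes of myofibroblasts behaved like the contractile genes with 1 exception. Of 14 measured genes, 1 was higher and 0 were lower, with a median log2 ratio of 0.02. The exception was Tnc, the matrix glycoprotein tenascin-C (chr4:63959785-64047015, minus strand), with 1700 CPM in KPC-shV and 2582 CPM in KPC-shZEB1, a ratio of 1.52 (1.49 to 1.55). Tnc was higher in 7 of 7 sub-clusters of the fibroblasts compared (the one left out had 2 cells in KPC-shV), but over the 114 and 69 fibroblasts with 0 Ptprc UMIs its ratio was 0.871, on the other side of 1, and it was 1.42 without the 2 sub-clusters that came mostly from 1 library. The gene 8030451A03Rik lies across Tnc on the opposite strand (chr4:63979854-64149924) and was at 72.0 and 212 CPM, a ratio of 2.95. The strand setting of the counting is not given in the sources used here, so reads of this overlap cannot be divided between the pair with certainty. Postn (periostin, 610 and 624 CPM), Lox (765 and 818 CPM) and Col12a1 (671 and 719 CPM) were within 1.1-fold. Ccn2, a target of TGF-beta and YAP signalling, was at 236 and 163 CPM (ratio 0.691), and Ltbp2, a latent TGF-beta binding protein, at 269 and 196 CPM (ratio 0.728). Neither passed the fold.

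The inflammatory list summed to more in the library labelled KPC-shZEB1, with the largest part of the difference from Saa3. Of 17 measured genes, 4 were higher (Saa3, Cxcl5, Csf3 and Il33) and 0 were lower, against 2.7% and 1.89% of all genes, and the median log2 ratio was 0.25. The 18 genes summed to 12593 CPM in KPC-shV and 16200 CPM in KPC-shZEB1, a ratio of 1.29 (1.28 to 1.30). Saa3, an acute-phase serum amyloid (chr7:46711998-46715700, minus strand), had 1603 CPM in KPC-shV and 3761 CPM in KPC-shZEB1, giving a ratio of 2.35 (2.30 to 2.39). The median fibroblast had 142 CPM of Saa3 in KPC-shV and 440 CPM in KPC-shZEB1, the upper quartile was 1012 and 3617 CPM, and the highest cells reached 48881 and 68682 CPM. Both the ordinary and the highest cells of KPC-shZEB1 therefore carried more Saa3, although the libraries overlap.

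Cxcl5, a neutrophil-attracting CXCR2 ligand (chr5:90759360-90761624), was at 67.4 CPM in KPC-shV and 186 CPM in KPC-shZEB1, a ratio of 2.76 (2.52 to 3.04). Its 10 highest cells held 65.5% and 38.8% of its UMIs, so the value rests on a small number of fibroblasts. Csf3, the granulocyte growth factor G-CSF, was at 30.8 and 64.7 CPM, a ratio of 2.10 (1.82 to 2.43). Among fibroblasts with 0 Ptprc UMIs the ratio of Csf3 was 0.798. Il33, an alarmin of stromal nuclei, was at 261 and 394 CPM, a ratio of 1.51 (1.43 to 1.59), close enough to the threshold that it was 1.30 among fibroblasts with at least 2% collagen.

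The classical cytokines of inflammatory fibroblasts differed less. Il6 was at 652 and 704 CPM (ratio 1.08), with a median of 578 and 657 CPM per cell, and Cxcl1 was at 1385 and 1500 CPM (ratio 1.08). Ptgs2, the inducible prostaglandin synthase COX-2, was at 694 CPM in both libraries. Complement C3 (2629 and 3589 CPM, ratio 1.37), the monocyte chemokines Ccl7 (1122 and 1474 CPM, ratio 1.31) and Ccl2 (769 and 916 CPM, ratio 1.19) and the CXCR4 ligand Cxcl12 (357 and 438 CPM, ratio 1.23) were all within 1.5-fold. Cxcl2, which shares the printed NF-kB run with Cxcl1, had the opposite sign, at 1761 and 1227 CPM (ratio 0.697). Cxcl2 is also among the transcripts of the neutrophil barcodes, which were fewer in that library, at 35256 and 27461 CPM. With the mean profile of kept barcodes, scaled to S100a8 and S100a9, subtracted, Cxcl2 was at 363 and 328 CPM in the fibroblasts, whereas Saa3 was at 1560 and 3674 CPM. With a macrophage profile scaled to C1q subtracted instead, Cxcl2 was at 1564 and 741 CPM and Saa3 at 1593 and 3731 CPM. The Cxcl2 difference thus depends on the profile, and its source was not tested. The leukaemia inhibitory factor gene Lif was at 91.2 and 63.1 CPM (ratio 0.692).

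**Figure D1:**
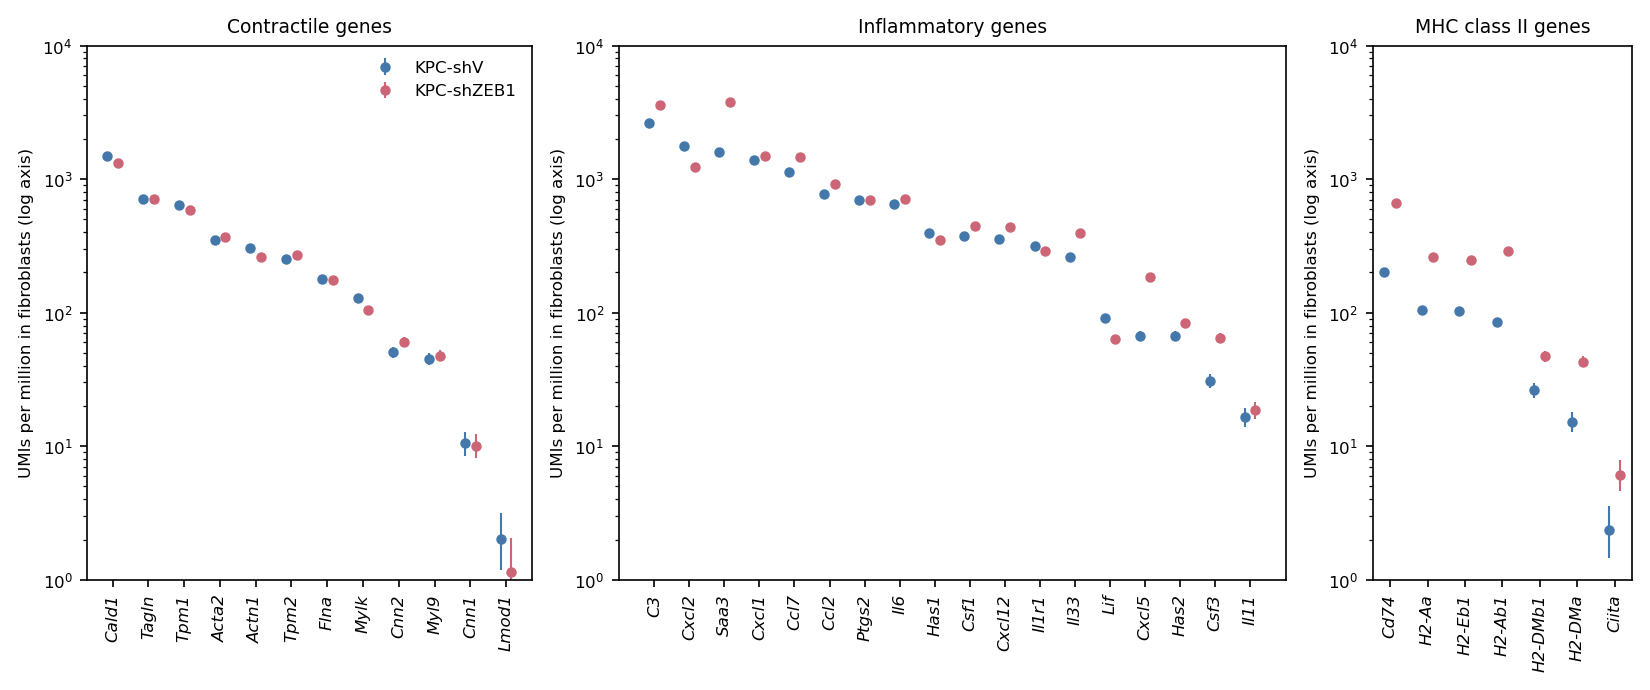
Levels in CPM (log axis) of contractile, inflammatory and MHC class II genes in fibroblasts of KPC-shV and KPC-shZEB1, with exact Poisson 95% intervals that cover counting error only. The contractile pairs lie nearly on each other (Acta2 at 351 and 367 CPM), Saa3 and Cxcl5 stand apart by 2.35 and 2.76 times, and the class II genes are all higher in KPC-shZEB1.

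To see whether the levels were particular to fibroblasts, the same genes were read in the other cell classes. Saa3 was at 311 and 402 CPM in macrophage barcodes and 152 and 163 CPM in Epcam-positive barcodes, well under the fibroblasts, and its ratio was between 1.08 and 2.52 over the 7 other classes. Il6 was at 79.7 and 72.8 CPM in macrophages. C3 was at 266 and 378 CPM in macrophages and 195 and 355 CPM in Epcam-positive barcodes. Cxcl12 was at 40.5 and 118 CPM in endothelial barcodes. Cxcl5 did not follow one direction elsewhere: in Epcam-positive barcodes it was at 294 and 169 CPM (ratio 0.575), and in T cell barcodes its ratio was 0.990. Csf3 was higher in endothelial barcodes than in fibroblasts, at 90.4 and 70.0 CPM. Its ratio ran from 0.775 in endothelial to 3.71 in T cell barcodes over the 7 other classes, so its difference was not particular to fibroblasts. No other class held the fibroblast level of Saa3, Il6, C3 or Cxcl12 in these sums.

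Contractile and inflammatory RNA tended to lie in different cells. Across cells, Spearman's rho between the contractile and the inflammatory list (UMIs per 10000) was -0.48 in KPC-shV (n = 312) and -0.52 in KPC-shZEB1 (n = 345). These points share a library and their depth, each list is a share of the same total, and rho is given as a description. Of the 165 cells above the 75th percentile of the contractile list over both libraries and the 165 above that of the inflammatory list, 4 cells of KPC-shV and 5 of KPC-shZEB1 were in both. The median inflammatory score of the cells high in contractile genes was 72.0 and 76.6 UMIs per 10000, against 130 and 158 in the other fibroblasts. The cells high in inflammatory genes were 55 fibroblasts of KPC-shV (17.6%) and 110 of KPC-shZEB1 (31.9%), while those high in contractile genes were 85 (27.2%) and 80 (23.2%). The score has no gap at this percentile, as 67 cells lay within 10% of the inflammatory limit, and the states are described here as ends of a range and not as separate types.

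**Figure D2:**
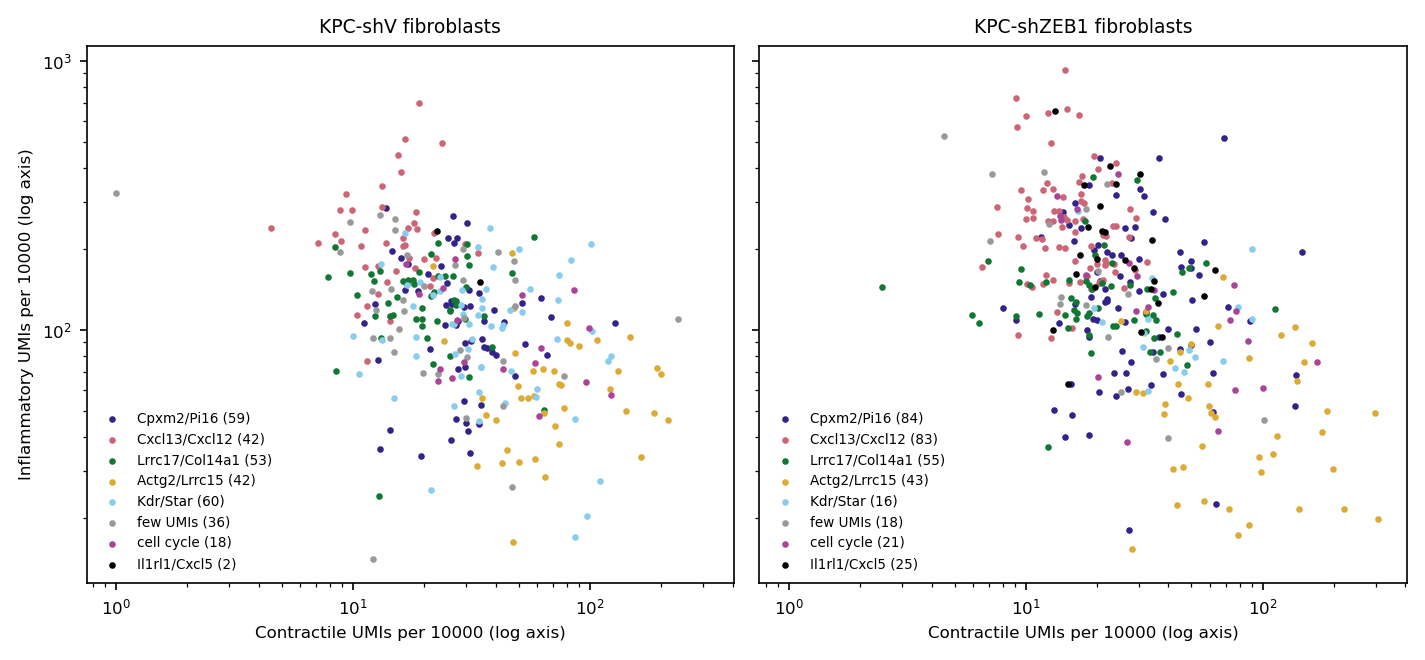
Contractile against inflammatory UMIs per 10000 in each fibroblast (log axes, values under 1 drawn at 1), 1 panel per library and 1 colour per sub-cluster. The points run from upper left to lower right in both libraries (rho -0.48 and -0.52), and the Actg2/Lrrc15 sub-cluster forms the contractile end.

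Adventitial genes mark a fibroblast of vessel and organ sheaths that is thought to be a reserve for other states. Of 12 measured genes, 3 were higher and 0 lower in the library labelled KPC-shZEB1, with a median log2 ratio of 0.24. Clec3b, the plasminogen-binding protein tetranectin, was at 73.2 and 151 CPM (ratio 2.06, 1.88 to 2.26), and Pi16, a peptidase inhibitor that is a standard marker of this state, was at 136 and 234 CPM (ratio 1.72, 1.60 to 1.84). Sema3c, a secreted semaphorin, was at 23.6 and 36.0 CPM (ratio 1.52, 1.28 to 1.82) and fell inside 1.5-fold at 2% collagen (1.44). The matrix genes Dpt (430 and 522 CPM) and Col14a1 (571 and 741 CPM) and the surface marker Ly6a (788 and 886 CPM) were within 1.5-fold. Among fibroblasts with at least 2% collagen Pi16 had a ratio of 1.43. Adventitial and contractile scores were also inversely ordered across cells, with rho of -0.58 and -0.48.

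MHC class II genes gave the largest median difference among the lists of fibroblast states. All 6 measured genes were higher in the library labelled KPC-shZEB1 and the median log2 ratio was 1.38. The 7 genes summed to 534 CPM in KPC-shV and 1550 CPM in KPC-shZEB1, a ratio of 2.90. H2-Ab1, a class II beta chain (chr17:34257689-34269419), was at 84.5 and 288 CPM (ratio 3.40), and Cd74, the invariant chain that guides class II to its loading compartment, at 200 and 659 CPM (ratio 3.29). H2-Aa was at 104 and 260 CPM, H2-Eb1 at 102 and 247 CPM, and the peptide-loading gene H2-DMb1 at 26.2 and 47.0 CPM. Ciita, the master activator of these genes, was at 2.34 and 6.12 CPM, under the filter in both.

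Class II RNA was higher in the same library as the macrophage list. The complement genes C1qa, C1qb and C1qc, which mark macrophages, summed to 194 CPM in KPC-shV and 558 CPM in KPC-shZEB1 fibroblasts, and Lyz2 (228 and 471 CPM) and Apoe (465 and 1293 CPM), other genes of that list, differed likewise. Apoe kept 172 and 288 CPM after subtraction of a macrophage profile scaled to C1q. The part of macrophage RNA in the class II difference was not tested. All 7 measured genes of the macrophage list were higher. The class II sum was no higher in fibroblasts than in cells that should lack it, as T cell barcodes had 538 and 1772 CPM and neutrophil barcodes 676 and 1885 CPM. Endothelial barcodes had 766 and 1987 CPM. The ratio of Cd74 to the C1q sum was 1.03 and 1.18 in fibroblasts and 1.13 and 1.42 in T cell barcodes. In macrophages and B cells, the cells that make class II, the sum was 13137 and 17017 CPM and 11101 and 13787 CPM. Epcam-positive barcodes had 963 and 3346 CPM. By this measure the fibroblast sum was not above that of T cell, neutrophil, endothelial or Epcam-positive barcodes in either library. The source of the class II RNA was not tested.

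**Figure D3:**
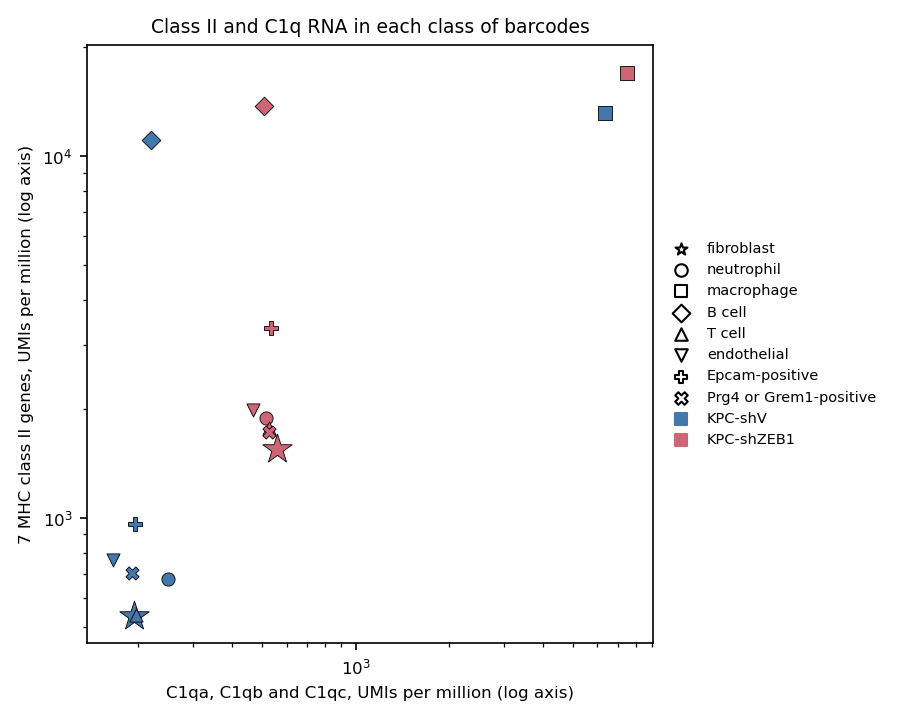
Summed CPM of the class II list against that of the C1q genes (log axes) for 8 cell classes in each library; stars are fibroblasts. The fibroblast stars lie among T cell, neutrophil and endothelial barcodes at 534 and 1550 CPM, far under macrophages and B cells.

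Class II RNA was also spread over the fibroblasts rather than held by a few. Every fibroblast of KPC-shZEB1 and all but 7 of KPC-shV had a class II UMI, the median cell had 13 and 38 UMIs, and the 10 highest cells held 10.95% and 11.97% of them. After each cell was thinned to 1000 UMIs, a Cd74 UMI was found in 18.9% and 46.1% of fibroblasts, and one of H2-Ab1 in 6.41% and 26.1% (unthinned 95.5% and 98.8% for Cd74, and 83.0% and 97.1% for H2-Ab1). In KPC-shV, class II CPM did not follow the cell's own C1q and Lyz2 UMIs, at 575, 523 and 584 CPM for cells with 1 to 5, 6 to 20 and over 20 of them. In KPC-shZEB1 the same bins had 1155, 1520 and 1557 CPM, from 13, 79 and 251 cells. Cells with 0 such UMIs had 696 CPM in KPC-shV (7 cells) and 2292 CPM in KPC-shZEB1 (2 cells). The bins also sort cells by depth, with medians of 2222, 17634 and 31669 UMIs in the 3 bins of KPC-shZEB1. The highest cell of KPC-shZEB1 had 699 class II UMIs beside 235 of C1q and Lyz2. The highest cell of KPC-shV had 209 class II UMIs beside 7 of C1q and Lyz2, 600 collagen and 2 Ptprc UMIs in a total of 24826, and was singled out after its values were seen. With a macrophage profile scaled to C1q subtracted, the class II sum was 134 and 284 CPM, a ratio of 2.12, and with the mean profile of all kept barcodes subtracted it was 31.7 and 155 CPM, a ratio of 4.89. The remaining ratio thus depends on which profile stands for the free RNA. The mean profile was scaled to S100a8 and S100a9, at 13.8% in KPC-shV and 16.4% in KPC-shZEB1, which takes those genes as background. It left Cd74 at 0 and 36.9 CPM, so the ratio of 4.89 rests on small remainders.

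MHC class I and interferon genes showed a smaller difference. Of 9 class I genes, 1 was higher, Psmb8 of the immunoproteasome (69.3 and 120 CPM, ratio 1.73, or 1.37 with 0 Ptprc UMIs), and the median log2 ratio was 0.41. B2m, the class I light chain, was at 904 and 1052 CPM, and H2-K1 at 1055 and 1142 CPM. Of 14 measured interferon-response genes, 3 were higher and 1 was lower. The interferon-gamma targets Iigp1, an immunity-related GTPase (142 and 389 CPM, ratio 2.75), Cxcl9, a T cell chemokine (89.3 and 205 CPM, ratio 2.30), and Gbp2 (79.6 and 134 CPM, ratio 1.69) were higher, while the type I target Rsad2 was lower (49.7 and 27.6 CPM, ratio 0.555). Cxcl9 had a ratio of 0.927 and Rsad2 of 1.37 among fibroblasts with 0 Ptprc UMIs, and Rsad2 was 1.05 as a mean over cells. Rsad2 was higher in neutrophil barcodes, at 481 and 339 CPM (ratio 0.705). Its ratio ran from 0.389 in T cell to 1.14 in endothelial barcodes over the other classes, and the part of neutrophil RNA in its difference was not tested. Endothelial barcodes held more of Iigp1 (1035 and 1369 CPM) and Cxcl9 (872 and 1019 CPM) than fibroblasts did. Gbp2 was higher in neutrophil barcodes, at 256 and 525 CPM. Iigp1, Gbp2 and Psmb8 also had a ratio above 1 in every other class, from 1.32 to 3.9 for Iigp1 and from 1.36 to 3.2 for Gbp2. The ratio of Cxcl9 ran from 0.889 in Prg4 or Grem1-positive to 3.03 in T cell barcodes. The differences in Iigp1, Gbp2 and Psmb8 were thus not particular to fibroblasts, and their cause was not tested.

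Matrix turnover genes were level apart from Timp3. Of 13 measured proteases and inhibitors, 0 were higher and 1 was lower, with a median log2 ratio of -0.05. Timp3, a matrix-bound metalloprotease inhibitor (chr10:86300372-86349506), was at 1136 CPM in KPC-shV and 632 CPM in KPC-shZEB1, a ratio of 0.556 (0.539 to 0.574). The median fibroblast had 190 and 62.0 CPM of it. Timp1 (1891 and 2106 CPM), Timp2 (543 and 490 CPM) and Mmp2 (767 and 637 CPM) were within 1.3-fold, and Mmp3 was at 265 and 348 CPM. Mmp10, under the filter, was at 21.9 and 5.81 CPM. None of 15 other collagen genes passed 1.5-fold (median log2 ratio 0.09); the nearest was Col5a3 at 308 and 457 CPM (ratio 1.48).

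Secreted signals gave single-gene differences in both directions. Of 14 measured growth factors, 2 were higher and 1 was lower. The EGF-family ligands Nrg1 (116 and 191 CPM, ratio 1.65) and Ereg (149 and 238 CPM, ratio 1.60) were higher, and Fgf10, a mesenchymal ligand for epithelial cells, was lower (28.3 and 15.4 CPM, ratio 0.542). None of these 3 calls held throughout: Ereg was at 1.28 without the 2 sub-clusters that came mostly from 1 library and 1.49 without the upper UMI limit, Nrg1 at 1.43 among fibroblasts with at least 2% collagen, and Fgf10 at 0.733 at 2% collagen, 0.804 with 0 Ptprc UMIs and 0.768 as a mean over cells. Nrg1 was far higher in macrophage barcodes, at 2190 and 1820 CPM (ratio 0.831), and its ratio was 1.25 to 2.90 in the remaining classes. With the mean profile of kept barcodes subtracted, its ratio in fibroblasts was 1.73. The part of macrophage RNA in the Nrg1 difference was not tested. Igf1 (855 and 916 CPM) and Gas6 (494 and 489 CPM) were level, and Vegfa was at 190 and 133 CPM (ratio 0.700). Among the Wnt and BMP genes, the activin antagonist Fst was higher (37.3 and 64.2 CPM, ratio 1.72, or 1.37 with 0 Ptprc UMIs) and the ligand Wnt4 was lower. Wnt4 (chr4:137277489-137299726) was at 274 and 148 CPM, a ratio of 0.538 (0.504 to 0.574), with per-cell medians of 190 and 78.6 CPM. Counting a difference of any size, it was lower in 7 of 7 sub-clusters compared, but in Kdr/Star by only 469 against 465 CPM.

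Genes of the TGF-beta pathway, the known inducer of the contractile state, were mostly level, with 0 of 15 higher and 1 lower and a median log2 ratio of -0.10. The lower gene was the ligand Tgfb3 (65.9 and 40.4 CPM, ratio 0.614), whose ratio was 0.923 without the 2 sub-clusters that came mostly from 1 library. Tgfb1 (78.6 and 86.8 CPM) and the receptor Tgfbr2 (384 and 359 CPM) were within 1.2-fold. Of 8 measured complement genes none passed 1.5-fold (median log2 ratio 0.17). Of 11 hypoxia and glycolysis genes, Adm, the vasodilator adrenomedullin, was higher (17.3 and 52.9 CPM, ratio 3.06), Egln3 was lower (63.3 and 41.7 CPM, ratio 0.659) and the glucose transporter Slc2a1 was at 120 and 112 CPM. Egln3 was at 691 and 463 CPM in neutrophil barcodes and had a ratio of 1.13 in fibroblasts with 0 Ptprc UMIs. None of 6 measured cell-cycle genes passed the fold, with Mki67 at 34.6 and 50.7 CPM.

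**Figure D4:**
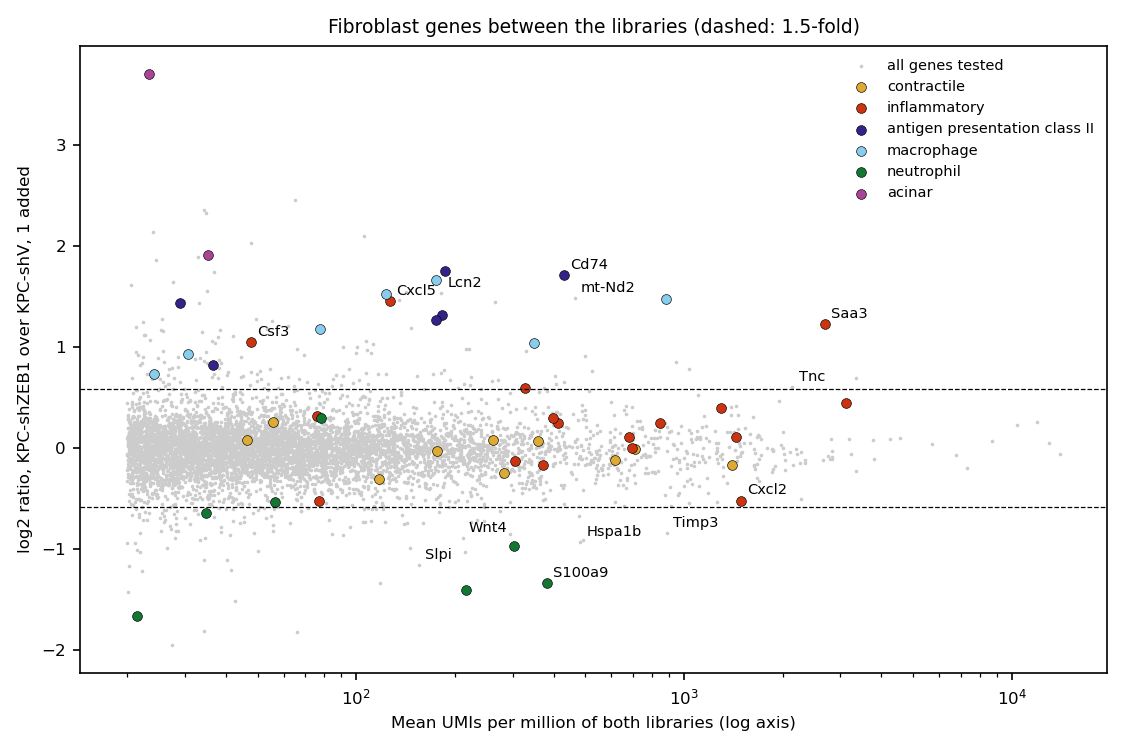
Log2 ratio of KPC-shZEB1 to KPC-shV (with 1 CPM added) against mean CPM (log axis) for the genes of the fibroblasts, with the contractile, inflammatory, class II, macrophage, neutrophil and acinar lists coloured and dashed lines at 1.5-fold. Contractile genes lie around 0, class II and macrophage genes above the upper line, and 6 of 7 measured neutrophil genes below 0.

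Several of the largest ratios were shared with other cell classes. The 12 genes with the largest ratio at a mean of at least 50 CPM included class II and macrophage genes (H2-Ab1, Cd74, C1qa, C1qb, Apoe) and the digestive enzyme gene Ctrb1 (19.3 and 110 CPM, ratio 5.73), whose ratio was 3.25 to 39.4 in the other classes. They also included mt-Nd2 (243 and 684 CPM, ratio 2.81), a mitochondrial gene that differed by 2.41 to 3.33 times in every other class, and AY036118, a noncoding gene in which ribosomal RNA reads are known to collect (71.4 and 199 CPM, ratio 2.78, elsewhere 2.12 to 3.63). Among the 12 smallest ratios, S100a8 (314 and 118 CPM), S100a9 (547 and 216 CPM), G0s2 (400 and 204 CPM) and Cxcl3 (103 and 28.4 CPM) are neutrophil genes. The heat-shock gene Hspa1b was at 634 and 332 CPM (ratio 0.523) and had a ratio of 0.254 to 0.485 in the other classes, and all 14 early response and heat-shock genes had a ratio under 1 in fibroblasts. The transcription factor gene Id3 was at 644 and 342 CPM (ratio 0.531, elsewhere 0.516 to 0.968). The direction for mt-Nd2, AY036118 and Hspa1b was thus the same in all 8 classes, and its cause was not tested.

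Other genes among the largest and smallest ratios differed in how far other classes held them. Lmcd1, a LIM-domain cofactor of transcription, was at 39.1 CPM in KPC-shV and 171 CPM in KPC-shZEB1 (ratio 4.38), and outside fibroblasts it was above 30 CPM only in endothelial barcodes (79.0 and 60.2 CPM). Lcn2, the iron-binding acute-phase protein lipocalin-2, was at 92.5 and 271 CPM (ratio 2.92), while Epcam-positive barcodes had 353 and 445 CPM. Of the smaller ratios, Cryab, a small heat-shock chaperone, was at 289 and 141 CPM (ratio 0.489), and Sugct was at 67.7 and 32.9 CPM (ratio 0.486), both above every other class. Soat1, which esterifies cholesterol, was at 195 and 97.9 CPM (ratio 0.503) and was higher in neutrophil barcodes (281 and 169 CPM, ratio 0.602). Slpi, a leukocyte protease inhibitor, was at 215 and 95.6 CPM (ratio 0.445), against 1112 and 876 CPM in neutrophil barcodes, and had a ratio of 0.496 in T cell and in endothelial barcodes. Soat1 had a ratio of 0.723 in fibroblasts with 0 Ptprc UMIs and Slpi one of 0.685 at 2% collagen. Without the 2 sub-clusters that came mostly from 1 library, Cryab had a ratio of 0.737 and Sugct of 0.688, inside 1.5-fold. Spp1, osteopontin, was at 2012 and 2008 CPM in fibroblasts.

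To describe how the states are laid out, the fibroblasts of both libraries were clustered together without the genes of the contractile, matrix, inflammatory, adventitial and MHC lists or the 3 collagens. This gave 8 sub-clusters, named here by leading genes. Since the sub-clusters were drawn from these cells, their levels are descriptions with no test, and since leading genes differ between the libraries, their sizes are not compared. The Cpxm2/Pi16 sub-cluster held 59 cells of KPC-shV and 84 of KPC-shZEB1, Cxcl13/Cxcl12 42 and 83, Lrrc17/Col14a1 53 and 55, Actg2/Lrrc15 42 and 43, Kdr/Star 60 and 16, Adgrl3/Prg4 36 and 18, Cenpf/Top2a 18 and 21, and Il1rl1/Cxcl5 2 and 25.

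The contractile end was the Actg2/Lrrc15 sub-cluster. All 12 contractile genes were highest there over both libraries, although they were kept out of the clustering, with 10 of 12 in KPC-shV alone, where Actn1 and Flna were highest in the 2 cells of Il1rl1/Cxcl5, and 12 in KPC-shZEB1 alone. Of 15 matrix genes, 10 were highest there, 10 in KPC-shV and 8 in KPC-shZEB1. Acta2 was at 1063 CPM there and at 28.9 CPM in Cxcl13/Cxcl12, and Tagln at 2453 and 23.5 CPM. The contractile list summed to 8726 CPM in Actg2/Lrrc15 and the inflammatory list to 6425 CPM, the lowest of the 8. Spp1 (7524 CPM), the chemokine gene Cxcl14 (1627 CPM), Timp3 (2979 CPM) and the activin subunit Inhba (600 CPM) were also high there. Within this sub-cluster Iigp1 was at 290 CPM in KPC-shV and 1396 CPM in KPC-shZEB1, and Cxcl9 at 168 and 710 CPM. Cycling genes led another group, Cenpf/Top2a, where the cell-cycle list summed to 2023 CPM and Acta2, at 759 CPM, was second highest.

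The inflammatory end was the Cxcl13/Cxcl12 sub-cluster, where the inflammatory list summed to 25523 CPM and the contractile list to 1611 CPM. Saa3 (6690 CPM), C3 (7374 CPM), Cxcl12 (1066 CPM), Il6 (1103 CPM), Il33 (678 CPM) and Igf1 (1671 CPM) were high there, with 7 of 9 complement genes highest (6 in each library alone). Of the complement genes only C3 was kept out of the clustering, and Cfd was at 0 in every sub-cluster. The Il1rl1/Cxcl5 sub-cluster came second, with 20703 CPM of the list and 8 of its 18 genes highest, among them Cxcl5 (749 CPM), and it also had Tnc (6358 CPM) and Ereg (754 CPM). It held 2 cells of KPC-shV, so with 1 library per group it may be that library and not a type of cell. Adventitial genes divided between Lrrc17/Col14a1, where 8 of 12 were highest over both libraries, 5 in KPC-shV alone and 8 in KPC-shZEB1 alone (Dpt 874 CPM, Col14a1 1344 CPM, Ly6a 1364 CPM), and Cpxm2/Pi16, which led in Pi16 (487 CPM).

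Kdr/Star had the highest Wnt4 (468 CPM), Wt1 (631 CPM) and Slpi (468 CPM) and came mostly from KPC-shV. Adgrl3/Prg4 stood apart in quality: its median was 9723 UMIs, against 25107 to 37708 in the others, it held 10 of the 13 fibroblasts with a doublet score over 0.2, and its neutrophil list summed to 3305 CPM. Its leading gene Cntn5 was also found in barcodes of the Prg4 or Grem1-positive class (591 and 80.0 CPM). Without it, the ratio of Saa3 was 2.22.

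**Figure D5:**
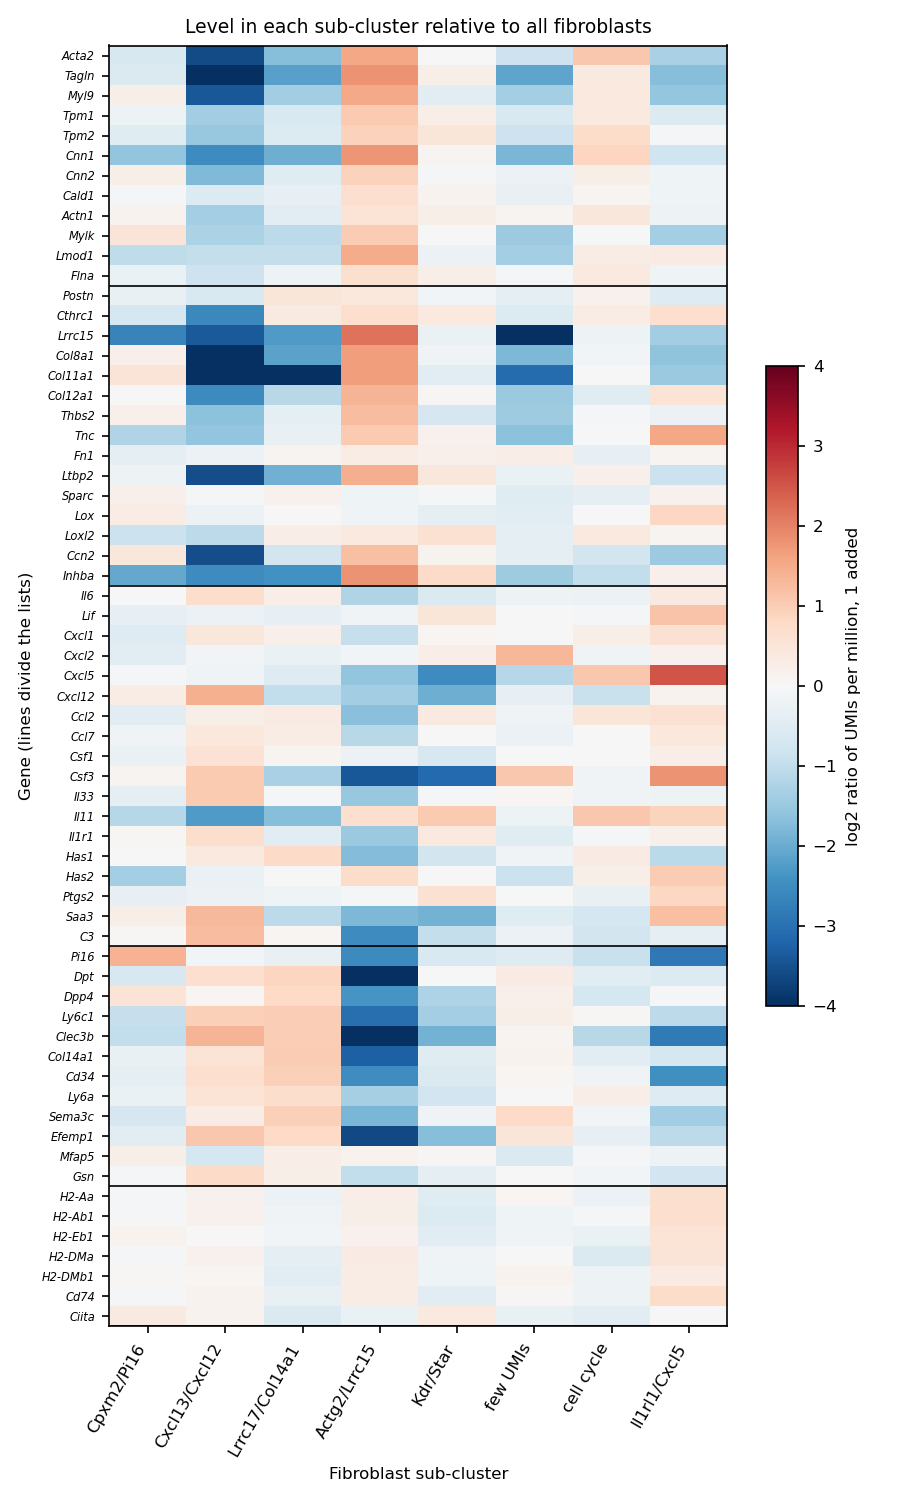
Log2 ratio of each list gene in the 8 sub-clusters to its level in all fibroblasts (colour). The contractile genes are warm in the Actg2/Lrrc15 column, where all 12 are highest over both libraries, and the inflammatory genes in the Cxcl13/Cxcl12 and Il1rl1/Cxcl5 columns.

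Saa3 differed between the libraries within some sub-clusters and less within others. Within Cpxm2/Pi16 Saa3 was at 2449 CPM in KPC-shV and 3739 CPM in KPC-shZEB1, within Cxcl13/Cxcl12 at 5513 and 7269 CPM and within Lrrc17/Col14a1 at 906 and 1722 CPM. In the contractile Actg2/Lrrc15 it was at 826 and 744 CPM and in Kdr/Star at 770 and 595 CPM. Leaving out Kdr/Star and Il1rl1/Cxcl5, the 2 sub-clusters mostly of 1 library, gave a Saa3 ratio of 2.00 and an inflammatory median log2 ratio of 0.12. Timp3 was at 3383 and 2546 CPM within Actg2/Lrrc15 and at 1481 and 775 CPM within Kdr/Star. Wnt4 was at 252 and 95.5 CPM within Cpxm2/Pi16. Tagln was at 2169 and 2759 CPM within Actg2/Lrrc15 and at 472 and 477 CPM within Cpxm2/Pi16.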

How the data were processed

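One library per tumour was made with the 10x Chromium 3' kit (v3.1) after collagenase, DNase and trypsin digestion. The authors aligned reads to mm10 with Cell Ranger 7.0.1 and deposited raw UMI counts per gene and barcode; whether intronic reads were counted is not given in the sources used here. From the deposited counts, fibroblasts were chosen by the rule above. Members and gene lists were chosen with earlier results of these data known. Genes named are those of 29 lists, the 12 largest and 12 smallest ratios at a mean of at least 50 CPM, and leading genes of sub-clusters. UMIs summed over cells were divided by their total (CPM), with exact Poisson intervals; ratios have exact conditional intervals. Log2 ratios had 1 CPM added. Cell classes were set by UMI rules on marker genes (neutrophils by S100a8 and S100a9 at 1% or more, macrophages by C1q genes at 0.1% or more, the Epcam-positive class by at least 3 Epcam UMIs, and the Prg4 or Grem1-positive class by at least 5 UMIs of these). Doublets were scored with Scrublet in scanpy 1.11.5 and kept. Sub-clusters used 20 principal components of 2000 variable genes, 20 neighbours and Leiden (leidenalg 0.10.2) at resolution 0.6, without alignment of the libraries. Gene identifiers matched GENCODE M21 for 32235 of 32285 genes. The ratio script was tested on simulated counts. The alternatives tried were other membership limits, other thresholds, a mean over cells, and subtraction of a background profile; the last alternatives, on sub-clusters and on the macrophage profile, were chosen after seeing the data. Some members of the lists are not reported here.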

Additional observations from a re-analysis of the deposited data

How the results depend on the processing

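With 1 library per group no replicate could be left out, and no paired analysis was possible because each group has 1 library. The share ratio (1.04) was 0.570 with Ptprc at 0, where 114 and 69 fibroblasts with medians of 23709 and 20332 UMIs are left while Ptprc was at 420 and 514 CPM over kept barcodes, and 0.783 with neutrophil barcodes left out of the denominator. The counts of genes (173 higher, 121 lower) were 325 and 351 with Ptprc at 0, 60 and 20 at 2-fold, 54 and 33 at a mean of at least 100 CPM and 4361 and 3401 with no filter; 108 were higher with the mean profile subtracted. Higher genes were 58.8% of those called, 48.1% with Ptprc at 0, 41.5% with the mean profile subtracted and 75% at 2-fold. The contractile median log2 ratio (-0.02) was -0.17 at 2% collagen, -0.26 with Ptprc at 0, 0.11 without the upper UMI limit and 0.23 within the largest sub-cluster, so its sign is not fixed. The inflammatory median (0.25) was 0.15 at 2% collagen, 0.12 without the 2 sub-clusters of mostly 1 library and 0.18 within the largest sub-cluster. The class II median (1.38) was 0.64 with the macrophage profile subtracted and 1.07 within the largest sub-cluster. With the mean profile subtracted it was 2.85, but only H2-Ab1 then passed the filter of 20 CPM. H2-Ab1 was at 6.10 CPM in KPC-shV and 50.3 CPM in KPC-shZEB1 there, so this value is not a median over the list. Of 581 ratios of the 59 named genes past 1.5-fold under the alternatives, 539 were still past it, 35 were inside it with the same direction and 7 reversed. Genes that subtraction of the mean profile brought to 0 in KPC-shV, such as Cd74, C1qb, Lyz2 and S100a8, have no ratio there and are not counted. S100a9, at 6.40 and 0 CPM after that subtraction, is counted as still past. With Ptprc at 0 the reversed ratios were 0.798 for Csf3, 0.927 for Cxcl9, 1.13 for Egln3, 0.984 for Rgs4, 1.37 for Rsad2 and 0.871 for Tnc, and as a mean over cells 1.05 for Rsad2; the cause was not tested.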

Other observations

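Genes of secreted signals also differed in level between the sub-clusters. Of those named here only C3 was kept out of the clustering, so the others could shape the sub-clusters they describe. Complement genes followed the inflammatory end: C3 was at 7374 CPM in Cxcl13/Cxcl12 and 542 CPM in Actg2/Lrrc15. C4b, a component of the classical pathway, was at 840 and 48.6 CPM. Igf1, a survival factor for epithelial cells, had the same order, at 1671 and 178 CPM. Angpt1, a ligand that stabilises vessels, was highest in Actg2/Lrrc15 (183 CPM) and 27.4 CPM in Lrrc17/Col14a1, and Wnt5a (69.3 CPM), Dkk2 (31.2 CPM) and Dkk3 (164 CPM) were highest there too. Gas6, the ligand of the AXL receptor, was at 1231 CPM in Cpxm2/Pi16 and 423 CPM in the next sub-cluster, and the Wnt antagonist Sfrp1 at 3706 and 1480 CPM. Sfrp2 and Sfrp4, of the same family as Sfrp1, were low in Actg2/Lrrc15 (35.3 and 8.15 CPM).

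Matrix turnover genes, which were not kept out of the clustering either, divided likewise. Timp3 ranged from 27.7 CPM in Cxcl13/Cxcl12 to 2979 CPM in Actg2/Lrrc15, and Timp1 from 862 to 3486 CPM between the same sub-clusters. Mmp3, stromelysin, had the reverse order, at 724 CPM in Cxcl13/Cxcl12 and 98.2 CPM in Actg2/Lrrc15, and the aggrecanase Adamts5 was at 660 CPM in Cpxm2/Pi16 and 49.9 CPM in Actg2/Lrrc15. These are descriptions of clusters made from the same cells, with no test.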
